A study of Homo sapiens with 4 samples.

Results

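The 10 genes described here are transcription factors, cadherins and a matrix protein of the mesenchymal state: SNAI1, SNAI2, TWIST1, TWIST2, ZEB1, ZEB2, PRRX1, CDH2, CDH11 and TNC. They were taken by symbol from the 60617 Ensembl gene IDs of the deposited count table, and each symbol matched 1 ID. The question put to them is whether regulators of the mesenchymal programme, which the Ewing sarcoma fusion protein is known to hold down, change together. Cells of A673, a human Ewing sarcoma line that carries a fusion of EWSR1 to FLI1 and lacks functional p53, received CBL0137 at 1 µM for 24 h or the solvent DMSO for the same time. CBL0137 is a curaxin, a DNA-binding molecule that traps the histone chaperone FACT on chromatin. There were 2 libraries of total RNA in each group, all from the same cell line. Nothing in the labels says that the libraries of a group are separate cultures, and the p-values thus reflect only how far these libraries spread, which may be technical.

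In the transition from an epithelial to a mesenchymal state, zinc finger factors of the SNAI and ZEB families and basic helix-loop-helix factors of the TWIST family are known to bind E-boxes and silence epithelial genes such as CDH1. Cells then exchange E-cadherin for N-cadherin (CDH2) or cadherin-11 (CDH11) and deposit matrix proteins such as tenascin-C (TNC). Ewing sarcoma cells are of mesenchymal origin, and in other work lowering of the fusion protein raised mesenchymal genes and cell spreading.

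SNAI2 was the 1 gene of the 10 called higher after CBL0137, and 0 were called lower. A call needed a Benjamini-Hochberg adjusted p under 0.05 in edgeR's quasi-likelihood test over all tested genes and a fold change above 1.5. The same test called 9.61% of 17309 genes in either direction, 6.88% higher and 2.73% lower, so 1 call among 9 tested genes lies near the background. At an unadjusted p under 0.05, edgeR, DESeq2 and limma-voom each placed 4 of the genes higher and 0 lower. Over all tested genes these shares were 22.0% higher and 22.8% lower in edgeR, 13.3% and 16.6% in DESeq2, and 21.9% and 22.7% in limma-voom. DESeq2 called 0 of them at the same limits, against 6.20% of all genes it adjusted, and limma-voom called SNAI2. Without the fold limit, SNAI2, ZEB2, CDH11 and TNC passed the adjusted p with a higher level and 0 with a lower one, against 17.5% and 19.0% of all tested genes. That count of 4 dropped to 2 with DESeq2, to 2 without CBL0137 replicate 2 or DMSO replicate 1, to 3 without DMSO replicate 2 or the count filter, and to 0 on the FPKM scale. In 8 of the 10 genes both CBL0137 libraries lay above both DMSO libraries in CPM (counts scaled to library size with TMM factors), and in 0 did both lie below. Among all tested genes 33.5% had both CBL0137 libraries above and 33.4% both below. The median log2 fold change of the 9 tested genes was 0.15, against 0.003 over all tested genes. TWIST2 was too weakly counted to be tested. In bulk RNA, fewer cells with a transcript and less of it per cell cannot be told apart.

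**Figure D1:**
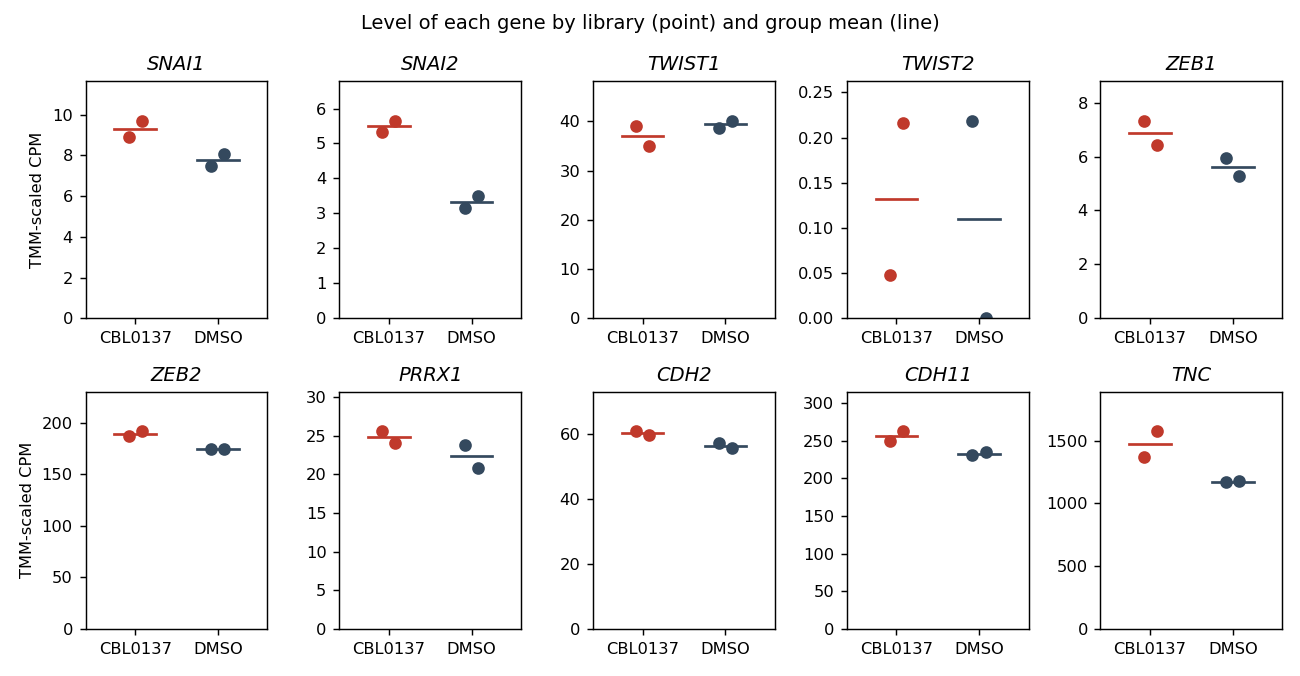
CPM after TMM scaling (vertical axes, each from 0) of the 10 genes in the CBL0137 and DMSO libraries, with points for libraries and lines for group means. In 8 genes the CBL0137 points lie above the DMSO points, and in TWIST1 and TWIST2 the groups overlap.

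The libraries held 20483714 to 22817617 counts over genes in CBL0137 and 23031963 to 23373554 in DMSO. Replicates differed by more than counting noise, with chi-square values per degree of freedom at 2.57 for CBL0137 and 2.07 for DMSO, against 20.8 between CBL0137 replicate 1 and DMSO replicate 1. Of 15 Ewing sarcoma markers all were counted well enough to be tested, and CD99, the surface antigen used in diagnosis, stood at 1573 CPM in CBL0137 and 1590 CPM in DMSO on average. EWSR1 averaged 283 and FLI1 69.7 CPM in CBL0137, against 324 and 67.8 CPM in DMSO. Epithelial markers were mixed in level. CLDN1 at 490 and 507 CPM in CBL0137 and 481 and 494 CPM in DMSO, KRT18 at 273 and 291 CPM in CBL0137 and 166 and 162 CPM in DMSO, and KRT8 at 194 and 204.5 CPM in CBL0137 and 131 and 134 CPM in DMSO were abundant. The adhesion molecules CDH1 and EPCAM were near 0, with CDH1 at 0 and 4 counts in CBL0137 and 2 and 1 in DMSO, and EPCAM at 6 and 5 counts in CBL0137 and 14 and 7 in DMSO.

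Both SNAI zinc finger repressors were expressed at low levels. SNAI2, also called Slug, is known for repression of E-cadherin and for survival and migration of neural crest cells, and it lies on chromosome 8 from 49830157 to 49834299 on the minus strand of GRCh37 (ENSG00000019549). A lncRNA on the opposite strand, ENSG00000288761, shares 121 exonic bases with SNAI2 and has no entry among the deposited counts. SNAI2 had 112 and 131 counts in CBL0137 replicates 1 and 2, against 72 and 79 in DMSO replicates 1 and 2. Scaled, these were 5.33 and 5.66 CPM in CBL0137 and 3.15 and 3.51 CPM in DMSO. Both CBL0137 libraries stood clear of both DMSO libraries, by more than the gap between replicates of either group. SNAI2 rose to 5.50 ± 0.23 CPM in CBL0137, against 3.33 ± 0.25 CPM in DMSO (mean ± SD, n = 2 each), which is 0.72 ± 0.18 (SE) as a log2 fold change (adjusted p = 0.00298 in edgeR). DESeq2, with a log2 fold change of 0.72 as well, did not call it (adjusted p = 0.0681). The call held with any 1 of the 4 libraries left out, at log2 fold changes of 0.64 to 0.79.

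SNAI1, or Snail, is a short-lived repressor of E-cadherin that acts early in the transition (chromosome 20, 48599517 to 48605423). It measured 8.91 and 9.71 CPM in CBL0137, against 7.48 and 8.08 CPM in DMSO. The groups did not overlap, but the gap between them was about as wide as the gap within each. The log2 fold change was 0.26 ± 0.13, with an edgeR adjusted p of 0.132, and SNAI1 was not called. The difference between its change and that of SNAI2 was not tested. The related SNAI3 had 26 and 17 counts in CBL0137 and 18 and 12 in DMSO, and was not called either (adjusted p = 0.339 by edgeR).

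**Figure D2:**
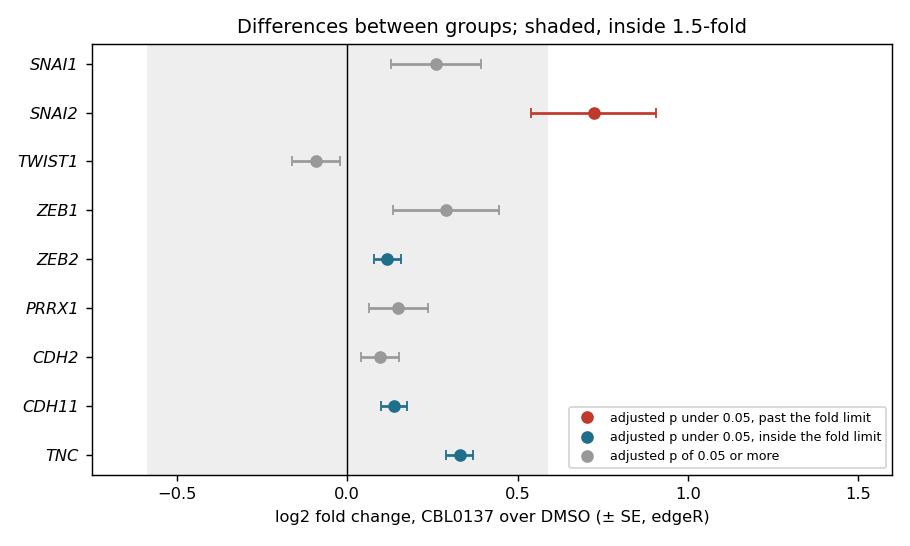
Log2 fold change of CBL0137 over DMSO for the 9 tested genes (horizontal axis, edgeR, bars ± SE), with the range inside 1.5-fold shaded. SNAI2 at 0.72 lies outside the shading, TNC, CDH11 and ZEB2 pass the adjusted p inside it, and TWIST1 is the 1 gene below 0.

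The ZEB factors, large zinc finger and homeodomain repressors that act with CtBP corepressors, differed widely in level. ZEB2, which is abundant in Ewing sarcoma and is known for its role in neural crest development, lies on chromosome 2 from 145121931 to 145278624. It measured 187 and 192 CPM in CBL0137, against 174.1 and 174.4 CPM in DMSO. Both CBL0137 libraries were above the pair of DMSO libraries, which were nearly equal. The difference was small, at 0.12 ± 0.04 as a log2 fold change (adjusted p = 0.021 in edgeR), far inside the fold limit. It missed the adjusted p of 0.05 with DESeq2 (0.1), with no count filter (0.0545), on the FPKM scale (0.817), and without CBL0137 replicate 2 (0.0965), DMSO replicate 1 (0.147) or DMSO replicate 2 (0.148).

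ZEB1, the better known repressor of epithelial genes in carcinoma (chromosome 10, 31607424 to 31818742), was rare in these cells. It measured 7.33 and 6.43 CPM in CBL0137, against 5.95 and 5.29 CPM in DMSO. Every CBL0137 value was above every DMSO value, with groups separated by less than the spread inside them. The log2 fold change was 0.29 ± 0.16 with an edgeR adjusted p of 0.154, and ZEB1 was not called. ZEB1-AS1, a lncRNA on the opposite strand that shares 396 exonic bases with it in GENCODE, had 29 and 19 counts in CBL0137 and 48 and 41 in DMSO, beside 154 and 149 counts of ZEB1 in CBL0137 and 136 and 119 in DMSO. The sources used here do not give whether counting used strand, and reads of ZEB1 and its antisense partner ZEB1-AS1 may be mixed. ZEB2-AS1 had 10 and 7 counts in CBL0137 and 3 and 6 in DMSO, few beside the 3919 and 4437 counts of ZEB2 in CBL0137 and 3978 and 3928 in DMSO. AC009951.1, a pseudogene on the strand of ZEB2 that shares 2966 exonic bases with it, has no entry among the deposited counts.

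The TWIST factors, which pair with E proteins to bind E-boxes, were split in level. TWIST1, a regulator of cranial and limb mesenchyme (chromosome 7, 19060614 to 19157259), measured 39.1 and 34.9 CPM in CBL0137, against 38.6 and 40.2 CPM in DMSO. The groups overlapped, since CBL0137 replicate 1 lay between the DMSO libraries. The log2 fold change was -0.09 ± 0.07 with an edgeR adjusted p of 0.329, and it ran from -0.01 to -0.18 with 1 library left out. A lncRNA on the opposite strand, ENSG00000232821, shares 141 exonic bases with TWIST1 and had 29 and 17 counts in CBL0137 and 29 and 23 in DMSO. TWIST2, known for dermal and craniofacial development (chromosome 2, 239756673 to 239832230), had 1 and 5 counts in CBL0137 and 5 and 0 in DMSO. The count of 0 in DMSO replicate 2 allows up to 0.133 CPM (3 counts, counting error only), and no difference was detectable at this depth.

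PRRX1, a homeobox factor of limb and craniofacial mesenchyme that can drive the transition in embryos and carcinoma (chromosome 1, 170631869 to 170708562), was moderately expressed. It measured 25.6 and 24.1 CPM in CBL0137, against 23.9 and 20.9 CPM in DMSO. CBL0137 replicate 2 and DMSO replicate 1 nearly touched. The log2 fold change was 0.15 ± 0.09 with an edgeR adjusted p of 0.189, and it moved between 0.05 without DMSO replicate 2 and 0.24 without DMSO replicate 1. Its relative PRRX2 measured 0.36 ± 0.08 on the same log2 scale, with an edgeR adjusted p of 9.6e-04, inside the fold limit. The difference between these relatives was not tested.

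The cadherins, calcium-dependent adhesion proteins that grip their like on neighbouring cells, were well expressed. CDH2 (N-cadherin; chromosome 18, 25512843 to 25757910) measured 60.8 and 59.7 CPM in CBL0137, against 57.2 and 55.6 CPM in DMSO. The groups stood apart by a small margin. The log2 fold change was 0.10 ± 0.06 with an edgeR adjusted p of 0.193, and CDH2 was not called. It passed the edgeR adjusted p, inside the fold limit, with upper-quartile scaling (0.0461) and with scaling by library size only (0.0281). CDH2 then stood at 0.14 and 0.16. These scalings also moved the median over all genes, to 0.051 and 0.065, against 0.003 with TMM.

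CDH11, a cadherin of osteoblasts and other mesenchymal cells (chromosome 16, 64977656 to 65160015), measured 250 and 262.5 CPM in CBL0137, against 231 and 235 CPM in DMSO. Both CBL0137 libraries were above both DMSO libraries. ENSG00000278893, which shares 254 exonic bases with CDH11 on the same strand, had 4 and 4 counts in CBL0137 and 8 and 7 in DMSO. The log2 fold change of CDH11 was 0.14 ± 0.04 with an edgeR adjusted p of 0.00575, so CDH11 passed the adjusted p and stayed far inside the fold limit. It missed an adjusted p of 0.05 without CBL0137 replicate 2 (0.0509) or DMSO replicate 1 (0.0907).

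TNC, a large matrix glycoprotein of embryonic tissue, wounds and tumour stroma, was the most abundant of the genes per length. It lies on the minus strand of chromosome 9 from 117781854 to 117880486 in GRCh37 (ENSG00000041982). TNC had 28756 and 36455 counts in CBL0137 and 26658 and 26469 in DMSO. Scaled, these were 1369 and 1574 CPM in CBL0137, against 1167 and 1176 CPM in DMSO. The CBL0137 libraries were above both DMSO libraries but differed from each other by about as much as replicate 1 did from DMSO, whereas the DMSO libraries were nearly equal. TNC averaged 1472 ± 145 CPM in CBL0137 and 1171 ± 6.24 CPM in DMSO (SD, n = 2 each), a log2 fold change of 0.33 ± 0.04 with an edgeR adjusted p of 4.5e-07. It was not called, being inside the fold limit, at 0.22 without CBL0137 replicate 2 and 0.42 without CBL0137 replicate 1. With DESeq2 the adjusted p of TNC was weaker, at 0.00647. The opposite-strand DELEC1, which shares 129 exonic bases, had 14 and 21 counts in CBL0137 and 27 and 26 in DMSO.

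Of the 4 genes that passed the adjusted p, only TNC and ZEB2 have RefSeq promoter entries. The stretch upstream of TNC is shown because it holds a tandem of the ETS core GGAA. The FLI1 part of the fusion protein is known to bind these letters. The stretch covers the bases 250 to 51 before the RefSeq start (sequence from the RefSeq table on GRCh38.p14, found at 1 place in GRCh37, chr9:117880487-117880686, minus strand). In GRCh37 it directly adjoins the GENCODE start of TNC at 117880486, so the offset does not hold from that start. Capitals mark the match to GGAAGGAA, here on the opposite strand.

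TNC: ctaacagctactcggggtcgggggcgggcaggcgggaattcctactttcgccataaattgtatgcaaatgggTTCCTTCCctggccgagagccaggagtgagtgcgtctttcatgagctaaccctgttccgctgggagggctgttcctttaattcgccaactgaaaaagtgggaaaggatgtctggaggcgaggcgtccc

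GGAAGGAA occurred on either strand in 2.41% of 35116 RefSeq promoter entries over the same 200 bases. Since TNC was picked for its match, this share is a description and not a test. CACCTG, the E-box bound by SNAI and ZEB factors, occurred in 14.9% of them and not in this stretch of TNC. The more general CANNTG, which includes CACCTG, occurred in 54.6% and at 2 places in TNC. The stretch of ZEB2 held 0 GGAAGGAA, 0 CACCTG and 1 CANNTG. Among the other genes with entries, 1 of the 7 ZEB1 entries held 1 GGAAGGAA, and 2 of those entries held CACCTG, at 1 and 2 places. PRRX1, TWIST2 and the 2 entries of CDH2 held neither of these. SNAI1, SNAI2, TWIST1 and CDH11 were not searched. A match describes letters in a window and not binding.

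Levels of different genes can be compared only per length, for which the deposited FPKM serves. In DMSO the mean order was TNC (61.6 FPKM), CDH11 (24.1), ZEB2 (18.3), TWIST1 (16.03), CDH2 (10.5), PRRX1 (4.22), SNAI1 (2.97), SNAI2 (0.969), ZEB1 (0.620) and TWIST2 (0.0640). The order was the same in CBL0137, at 86.9 FPKM for TNC, 1.67 for SNAI2, 0.751 for ZEB1 and 0.0734 for TWIST2. In DMSO, the libraries of ZEB2 and TWIST1 overlapped, as did those of SNAI2 and ZEB1, and no other neighbours in the order overlapped in either group. The abundant member of each pair of relatives was TWIST1 over TWIST2 and ZEB2 over ZEB1 in every library.

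**Figure D3:**
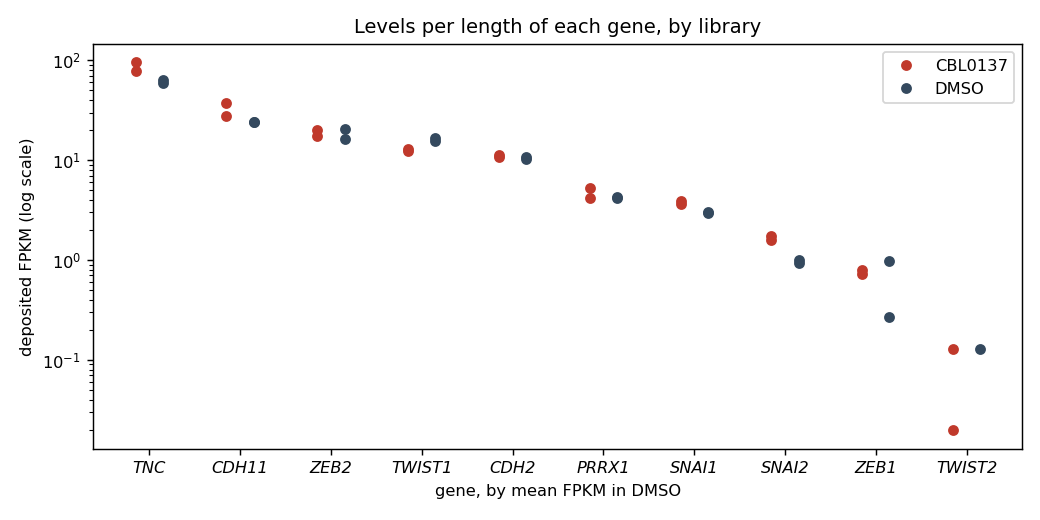
Deposited FPKM (vertical log axis) of the 10 genes in each library, ordered by their mean in DMSO, with CBL0137 left of DMSO. Levels run from above 59 FPKM for TNC to under 0.2 FPKM for TWIST2, whose DMSO replicate 2 is listed at 0 and is not drawn.

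The deposited FPKM and the counts differed for some of these genes. TWIST1 had 13.0 and 12.4 FPKM in CBL0137, against 15.4 and 16.7 FPKM in DMSO, so both CBL0137 libraries were lower in FPKM while they overlapped DMSO in CPM. With limma-trend on log2(FPKM + 1), which understates the change of low genes, TWIST1 differed by -0.31 with an adjusted p of 0.0517. CDH11 had 27.8 and 37.7 FPKM in CBL0137, against 24.3 and 23.9 FPKM in DMSO, a difference of 0.41 on that scale with an adjusted p of 0.138. ZEB1 had 0.717 and 0.786 FPKM in CBL0137, against 0.973 and 0.267 FPKM in DMSO, although its DMSO counts were 136 and 119. The FPKM per CPM of ZEB1 varied 3.24-fold between libraries, against 1.06-fold for CDH2. On the FPKM scale SNAI2 differed by 0.44 (adjusted p = 0.0606) and TNC by 0.48 (adjusted p = 0.0538), and edgeR's 1 call among the 10 genes became 0.

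The partners and targets of these factors were read from lists. Over all tested genes 6.88% were called higher and 2.73% lower. Of 14 tested further transition factors, 1 rose, 0 fell and 13 were not called, with a median log2 fold change of 0.16. SOX9, a factor of cartilage and neural crest, rose to 66.7 CPM in CBL0137, against 42.6 CPM in DMSO (0.65 ± 0.06, edgeR adjusted p = 2.6e-09). The E proteins that pair with TWIST factors were not called, at 0.16 ± 0.03 for TCF12, 0.14 ± 0.04 for TCF4 and -0.11 ± 0.04 for TCF3. Of 16 corepressors and binding partners, 1 rose, 1 fell and 14 were not called. LOXL2, a lysyl oxidase known to bind SNAI1, rose to 91.3 CPM in CBL0137, against 39.5 CPM in DMSO (1.21 ± 0.06, edgeR adjusted p = 1.8e-14). SUV39H1, a histone H3 lysine methyltransferase that SNAI1 is known to recruit, fell (-0.61 ± 0.09), but fell short of the limit with upper-quartile scaling (-0.56), scaling by library size only (-0.55) without CBL0137 replicate 1 (-0.55) and on the FPKM scale (-0.47). ID3, an inhibitor of E proteins, measured 0.57 ± 0.05, ID1 0.47 ± 0.08 and ID2 0.38 ± 0.04, all below the fold limit. ID4 of the same family went the other way, at -0.32 ± 0.06 (edgeR adjusted p = 1.6e-04), also inside that limit. ID3 passed that limit without CBL0137 replicate 1 (0.59) or DMSO replicate 1 (0.60), with upper-quartile scaling (0.62), with scaling by library size only (0.63) and on the FPKM scale (0.63).

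Of 16 kinases, ligases and other enzymes that set the stability of SNAI and related proteins, PAK1 fell (-0.60 ± 0.07), 0 rose and 15 were not called. Without the fold limit, 4 passed the edgeR adjusted p with a lower level and 0 with a higher one, against 19.0% and 17.5% of all tested genes. Beside PAK1 these were PRKD1 (-0.34 ± 0.06), GSK3B (-0.29 ± 0.05) and FBXL5 (-0.15 ± 0.05). PAK1, a kinase known to phosphorylate SNAI1, fell short with upper-quartile scaling (-0.55), scaling by library size only (-0.54) and without CBL0137 replicate 1 (-0.57), and measured -0.11 on the FPKM scale (adjusted p = 0.578). Of 6 tested antagonists of the transition, edgeR, DESeq2 and limma-voom called 0. At an unadjusted p under 0.05 in edgeR, passed by 22.0% of all tested genes higher and 22.8% lower, 1 was higher and 1 lower. The higher one was ELF3 (1.19 ± 0.48, edgeR adjusted p = 0.0573) and the lower one KLF5 (-0.47 ± 0.09, edgeR adjusted p = 1.7e-04). Another 10 were below the count filter, among them GRHL2, ELF5 and MIR205HG at 0 counts in every library, which allows up to 0.143 CPM in the shallowest. MIR200CHG, the host transcript of microRNAs that are known to repress ZEB1 and ZEB2, had 0 and 0 counts in CBL0137 and 1 and 0 in DMSO.

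Of 8 tested other cadherins, 1 rose, 0 fell and 7 were not called, and their median of 0.06 turned negative with genes under 1 CPM removed (-0.14) and when CBL0137 replicate 1 was left out (-0.13), and stood at -0.28 on the FPKM scale. The 1 that rose, CDH5 (VE-cadherin), had 19 and 17 counts in CBL0137 and 4 and 3 in DMSO (2.36 ± 0.60, edgeR adjusted p = 0.00274), and it lost its call without DMSO replicate 2 (adjusted p = 0.0523) and got no adjusted p from DESeq2. CDH4 (-0.51 ± 0.07), CDH8 (-0.29 ± 0.06) and CDH12 (-0.26 ± 0.05) had edgeR adjusted p of 7.7e-07, 2.2e-04 and 1.3e-04 with a lower level, and CDH24 (0.27 ± 0.05) of 1.6e-04 with a higher one, all inside the fold limit. Of 12 tested catenins and junction partners, edgeR, DESeq2 and limma-voom called 0, with 5 higher and 0 lower at an unadjusted p under 0.05 in edgeR, a limit that 22.0% and 22.8% of all tested genes passed. VCL (vinculin), which links cadherin junctions to actin, measured 0.42 ± 0.03 and beta-catenin (CTNNB1) -0.02 ± 0.04. Of 9 tested tenascins and tenascin receptors, EGFR rose (1.02 ± 0.12), 0 fell and 8 were not called. EGFR measured 0.72 with FPKM + 1 and 1.55 with FPKM + 0.1, and was called with neither. The tenascin TNXB measured -0.02 ± 0.15.

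Several genes that mark mesenchymal cells rose. Of 23 tested mesenchymal effectors, 8 rose, 0 fell and 15 were not called, with a median of 0.24. Of all tested genes 6.88% were called higher and 2.73% lower, with a median of 0.003. Among the 23 effectors, 21 had a log2 fold change above 0 and 2 had one below it. THY1 (0.72 ± 0.04), NT5E (1.02 ± 0.06), PDGFRB (0.66 ± 0.05), S100A4 (0.82 ± 0.08), AXL (1.24 ± 0.13) and TAGLN (0.65 ± 0.12) were among the genes that rose. Of the effectors 5 were called on the FPKM scale, where TAGLN measured 0.09. The intermediate filament VIM (0.20 ± 0.03) and the matrix protein FN1 (0.03 ± 0.03) were not called.

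**Figure D4:**
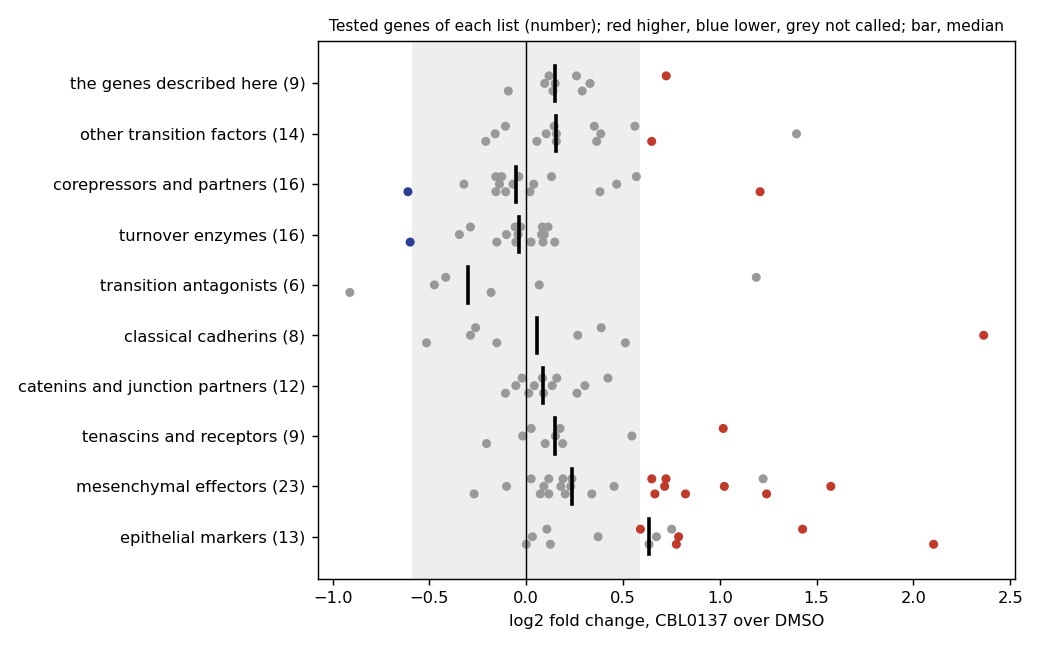
Log2 fold change of CBL0137 over DMSO (horizontal axis) of each tested gene in 10 lists, with list medians as bars, calls in red (higher) and blue (lower), and the range inside 1.5-fold shaded. The 10 genes described here (9 tested, top row) have a median of 0.15, the mesenchymal effectors 0.24 and the epithelial markers 0.63.

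Markers of other cell types moved beside these genes, and their part in the results was not tested. Of 13 tested epithelial markers, 5 rose, namely KRT18, KRT8, MUC1, RAB25 and CLDN3, and 0 fell, against 6.88% and 2.73% of all tested genes. That count fell to 2 with DESeq2 and without CBL0137 replicate 2, to 3 without DMSO replicate 1 or 2 or with genes under 1 CPM removed, and to 1 on the FPKM scale. RAB25 had 10 and 16 counts in CBL0137 and 3 and 3 in DMSO, and CLDN3 19 and 18 against 10 and 4. Neither got an adjusted p from DESeq2. KRT8, at 1.505-fold, lay close to the fold limit. Its FPKM overlapped, at 29.9 and 11.6 in CBL0137 and 19.8 and 14.1 in DMSO. The 19 epithelial markers matched summed to 992.5 and 1037 CPM in CBL0137, against 807 and 817 CPM in DMSO, while CDH1 and EPCAM stayed near 0 as given above. The summed levels of the 12 blood cell markers were 41.5 and 39.6 CPM in CBL0137 and 33.8 and 33.3 CPM in DMSO, of which CD79A gave the most, with CD3E, HBB and MS4A1 at 0 counts and PTPRC at 0 and 0 counts in CBL0137 and 1 and 1 in DMSO. Of 4 tested blood cell markers ITGAM rose (0.72 ± 0.18) and 0 fell. Of 4 tested endothelial markers CDH5 rose and 0 fell. Of 10 tested neuronal markers INA rose (0.68 ± 0.10) and ENO2 fell (-0.62 ± 0.04). INA lay inside the fold limit without DMSO replicate 1 (0.54) and with FPKM + 1 (0.58), but was called with FPKM + 0.1 (0.73). ENO2 lay inside that limit without CBL0137 replicate 1 or with upper-quartile scaling (-0.58 in each), and with library size only (-0.56). The summed level of neuronal markers was 999 and 1024 CPM in CBL0137, against 1321 and 1316 CPM in DMSO. TUBB3 added little to these sums, at 3.095 and 2.55 CPM in CBL0137 and 1.93 and 2.53 CPM in DMSO. Its deposited FPKM were high and went the other way, at 76.4 and 81.25 in CBL0137, against 96.2 and 89.3 in DMSO. Inside the fold limit, UCHL1 (-0.50 ± 0.03) and SYT1 (-0.42 ± 0.04) passed the edgeR adjusted p with a lower level. SYP (0.48 ± 0.10) and GAP43 (0.46 ± 0.10) passed it with a higher one. Muscle markers summed to 3.10 and 3.37 CPM in CBL0137 and 3.11 and 2.67 CPM in DMSO, with MYOD1, MYOG, MYF5 and MYL1 at 0 counts and 0 of 2 tested called by edgeR, DESeq2 or limma-voom, also at an unadjusted p under 0.05. Of the 15 Ewing sarcoma markers the same tools called 0, with 5 higher and 5 lower at an unadjusted p under 0.05. Of 15 mitochondrially encoded genes they called 0, with 4 higher and 6 lower at that limit. Among all tested genes, edgeR passed 22.0% higher and 22.8% lower there. DESeq2 passed 13.3% and 16.6%, and limma-voom 21.9% and 22.7%.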

How the data were processed

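Per the series' description, the authors used Trim Galore, HISAT2 on hg19 and HTSeq 0.11.1 to make the deposited read counts per gene, and named DESeq2 1.26.0. The submitters' processing notes list the mouse build mm10 beside hg19 for these human libraries, without a role. The gene IDs of the table are human. The deposited FPKM were, per the labels, made by the authors from mapped reads, gene length and depth, with a tool not given in the sources used here, nor is the annotation release. Of 60623 rows, 6 name no gene, and they held 23.7% and 24.8% of reads in CBL0137 and 23.9% and 24.1% in DMSO, including 9.19% to 9.50% ambiguous between genes. Symbols and GRCh37 positions came from GENCODE release 44 lifted to GRCh37, which named 58524 IDs, and PECAM1 had no match.

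The test was edgeR 4.0.16 (R 4.3.3; TMM, filterByExpr at a minimum count of 10, no covariate), with limma 3.58.1 and DESeq2 1.42.0 as alternatives, and the limits are those of the series' description. The SE is the log2 fold change over the square root of F. Tried on simulated data with 16914 genes tested, it found 75 of 96 set to a 2-fold change, 62 of 95 set to 1.6-fold and falsely called 1 of 16723. The simulation changed few genes, up and down alike, with dispersions taken from these libraries. Its rates were not checked for data like these, where 17.5% of genes passed the adjusted p higher and 19.0% lower. Genes, lists and tests were chosen with earlier results of these data known. The lists cover factors, partners, turnover enzymes, antagonists, cadherins, junction genes, tenascins, mesenchymal effectors, and epithelial, Ewing sarcoma, blood, endothelial, muscle, neuronal and mitochondrial genes. The text names all 10 genes, up to 6 called genes of a list and up to 4 others by adjusted p, plus some of the genes overlapping the 10. CTNNB1, TNXB, SNAI3, FN1, CD99, TUBB3 and CD68, and list genes given only as counts of reads, were named after their values were seen. Counts limit precision for SNAI2, ZEB1 and TWIST2.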

Additional observations from a re-analysis of the deposited data

How the results depend on the processing

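The count of the 10 genes called higher was 1 with edgeR and with limma-voom, under every other scaling and filter tried, with any 1 library left out (1 to 1) and with the replicate number as a block, where SNAI2 stood at 0.72 (adjusted p = 0.00579). It was 0 with DESeq2, 0 with a fold limit of 2, and 0 with FPKM + 1 or FPKM + 0.1, whose call of SNAI2 missed at 0.44 and 0.72, and 4 with no fold limit. The count of those called lower was 0 in each of these (0 to 0 with a library left out). With no fold limit, 5 passed under upper-quartile factors or library size alone and 2 with DESeq2, and the cause was not tested. The 8 genes with CBL0137 above DMSO were 8 under each other scaling, a check added after the data were seen. Over all genes, 1191 were higher and 472 lower. Higher calls numbered 596 with DESeq2, 388 with FPKM + 1, 489 with FPKM + 0.1, 3022 with no fold limit and 605 at a fold of 2. Lower calls numbered 189 with FPKM + 1, 237 with FPKM + 0.1, 3292 with no fold limit and 131 at a fold of 2. Leaving out 1 library gave 921 to 1052 higher and 422 to 539 lower, and the block 1128 and 448. Deviations of same-numbered libraries from their group means had r = -0.00965 across genes. With 2 libraries per group, both pairs give the same r by construction, so they are not separate measurements. An r across all genes cannot show whether some genes share a culture or batch, and whether the libraries are paired was not settled. Under the block ZEB2 had an edgeR adjusted p of 0.0512. The signs of the 9 tested genes were the same under each alternative that could test them.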

Other observations

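By distance between centred log2 CPM profiles over the 4 libraries, the profiles closest to that of SNAI2 among 11030 genes with at least 5 CPM outside the lists were those of SLCO5A1-AS1, a lncRNA, and TMEM38A, a channel of the sarcoplasmic reticulum. SLCO5A1-AS1 averaged 11.1 CPM in CBL0137 and 6.97 CPM in DMSO (log2 fold change 0.68 ± 0.13), at a distance of 0.0304. In deposited FPKM its direction was the opposite, at 3.03 and 4.70 in CBL0137, against 5.85 and 5.06 in DMSO. TMEM38A averaged 29.2 CPM in CBL0137 and 18.2 CPM in DMSO (0.68 ± 0.09), at a distance of 0.0466, and its FPKM were higher too, at 8.45 and 8.10 in CBL0137, against 4.82 and 5.27 in DMSO. With 4 libraries such likeness is a description only.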
